A study of Mus musculus with 6 samples.

Results

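The genes described here encode the proteins of the cytosolic ribosome. They were found by symbol, as Rpl or Rps followed by a number, plus Rpsa, Rplp0, Rplp1 and Rplp2, with the S6 kinases and pseudogene symbols left out. A gene was included where a probe set named it alone, and where several did so the brightest, by its mean of the 6 arrays, stood for it. The rule found 70 genes, measured by 133 of the 45141 probe sets, among 17097 genes with such a probe set. Of the 70, 45 belong to the large subunit and 25 to the small one, and 65 are core ribosomal proteins out of 79. The other 5 are paralogues, namely Rpl22l1, Rpl39l, Rpl3l, Rpl7l1 and Rps27l. The remaining core genes, Rpl5, Rps3 and Rps27 among them, are not analysed here as members.

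The cells were sorted as effector T cells from the blood of 3 C57BL/6 females of 6 to 8 weeks, labelled mice A, C and D. All had received 3 mg of Depo-Provera, a long-acting progestin, subcutaneously 5 days before the blood was taken by the labels, while the study's methods text gives a slightly longer interval. From each mouse, CD3+ CD62L- CD44High cells were divided into a CD11c+ and a CD11c- fraction, so that the 2 groups of 3 arrays are paired by animal. CD11c is an integrin chain best known from dendritic cells and other myeloid cells. Each array was hybridized with cDNA from 300 cells amplified over 24 cycles. The comparison asks how the CD11c+ and CD11c- fractions of the same animal differ in the mRNAs of ribosomal proteins. Markers of T cells and of other cell types in these fractions are given further below.

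Ribosomes consist of ribosomal RNA and one copy of most of these proteins, and the stalk proteins are the exception because several copies of them recruit the elongation factors. Mammalian ribosomal protein mRNAs are abundant and share a short pyrimidine tract at their 5′ end, the terminal oligopyrimidine (TOP) motif, through which mTORC1 controls their translation. Lymphocytes enlarge their ribosome pool when they are activated, under control of Myc and mTORC1. An array measures mRNA levels and not that translational control.

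The start regions below, of members taken up later in the text, were searched for pyrimidine runs, with RefSeq promoters in build GRCm38.p6 as the source. The search did not ask whether a run begins the mRNA, so a marked run is not shown to be a TOP motif. Each line gives 30 bases of the coding strand around an annotated start, 5′ to 3′, and capitals mark each run of at least 8 C or T letters within 30 bases of that start. Rps6, Rps18 and Rpl35 show the run in core members, and Rpl22l1 shows it in a paralogue. No run of that length was found in the windows of Rpl12 and Rpl7l1, and shorter runs, as in Rpl12, are not marked. Rps27l has 2 annotated starts, of which the upstream one has 2 runs before it and the downstream one has none. The regions are chr4:86857349-86857378 (minus strand) for Rps6, chr17:33955648-33955677 (minus) for Rps18, chr2:39005115-39005144 (minus) for Rpl35, chr3:28805499-28805528 (plus) for Rpl22l1, chr2:32961697-32961726 (plus) for Rpl12, and chr17:46782642-46782671 (minus) for Rpl7l1. Those of Rps27l are chr9:66946057-66946086 and chr9:66946398-66946427, both on the plus strand.
Rps6: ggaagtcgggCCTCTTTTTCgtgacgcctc
Rps18: gtcacttccgCTCTCTCTTCCacaggaggc
Rpl35: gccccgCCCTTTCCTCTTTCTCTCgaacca
Rpl22l1: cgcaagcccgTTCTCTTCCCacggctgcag
Rpl12: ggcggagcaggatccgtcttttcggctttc
Rpl7l1: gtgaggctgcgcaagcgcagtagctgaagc
Rps27l, upstream start: gcctccaCTCCTCTCCaCTCCTCCCCgccg
Rps27l, downstream start: accatgggcttcagggtcactaacgggcct

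Promoters of 56 of the 70 members were matched, with 67 windows because some genes have several starts. A pyrimidine run of at least 8 letters on the coding strand within 30 bases of the start was present in 47.8% of the member windows and in 22.9% of all 32851 windows. The letters CCGGAAGT, an ETS-type element searched on both strands over the whole 300-base window, were present in 17.9% of the member windows against 3.89% of all. The letters CTTTCC, searched on the coding strand within 30 bases of the start, were present in 13.4% against 2.89%, and they can lie inside a pyrimidine run. A match describes letters in a window and is not evidence of a bound factor or of the true start used in these cells. The 25 core members above background with a run had a median log2 difference between CD11c+ and CD11c- cells of -0.16, and the 24 without one had a median of -0.13.

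No ribosomal protein gene passed the test for a difference between the fractions. On the deposited scale most members read slightly lower in CD11c+ cells, with 1 clear exception in direction, Rps27l, a paralogue of Rps27. The median difference over the 70 genes, CD11c+ minus CD11c- on the log2 scale of the RMA values, was -0.16, a fold of 0.896, beside -0.086 over all 17097 genes. Recalculated with cyclic loess the median was -0.065, and with arrays centred on the CD3 chains it was 0.58. The latter scaling adds the same amount to every gene and took the median of all genes to 0.65, so its sign is not particular to the family.

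limma with the mouse as a block called 0 of the 70 members at an adjusted p under 0.05. Of all genes, 1.4% were called higher and 0.222% lower. At an unadjusted p under 0.05, 1 member was higher (Rps27l), where the share over all genes was 7.38%, and 2 were lower (Rpl22l1 and Rpl12), where it was 7.44%. The lowest adjusted p of a member was 0.122, for Rps27l. Standard errors of the differences lay between 0.123 and 0.749 (median 0.128), and the 95% confidence interval included 0 for 67 of the 70 genes. The median lower and upper bounds were -0.50 and 0.18. limma moderates standard errors across all probe sets, so those of the members are not their own spread alone. For Rpl31 the differences of the 3 mice had an SD of 0.0066, while its standard error was 0.123. The counts depended on the variance model. With a trend of the variance on the mean level, the median standard error of the members was 0.058, while that of all genes rose from 0.163 to 0.208. At these unlike standard errors 44 members were lower at an unadjusted p under 0.05, against 7.13% of all genes, and 1 was higher, against 6.97%. Still 0 members were called there, the lowest adjusted p by limma being 0.0530.

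On the deposited scale the direction was mostly the same in the 3 animals. Of the 70 members, 58 read lower in CD11c+ cells in 3 of 3 mice, which is 82.9%, where the background over all genes was 26.5%. Under cyclic loess the count was 36 of 70, against 17.5% of all genes, and with arrays centred on the CD3 chains it was 0. Members on one array share its RNA, amplification and scaling, so these genes are not independent observations. Only Rps27l and Rpl7l1 read higher in 3 of 3 mice, 2 of 70 against 12.6% of all genes. Every CD11c+ array read below every CD11c- array for 23 members, or 32.9%, where the background was 12.5%. That count was 10 under cyclic loess, or 14.3% against 7.53% of all genes. Rps27l alone read above on every CD11c+ array, against 7.48% of all genes. With arrays centred on the CD3 chains 0 members read below and 59 above on every CD11c+ array, 84.3% against 68.0% of all genes.

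The members' median differences were -0.15 in mouse A, -0.12 in mouse C and -0.23 in mouse D. Over all genes the corresponding medians were -0.17, -0.039 and -0.021, so that in mouse A the members did not lie below all genes on the deposited scale. Under cyclic loess the medians in mouse A were -0.076 for the members and -0.0039 for all genes. Over the 6412 other genes above background the medians were -0.056, -0.063 and -0.060, and 26.2% of these genes read lower in 3 of 3. Mouse D gave the lowest of the 3 differences for 43 of the 70 members, where it did so for 4431 of the 17097 genes. For 45 of the 70 members the range between the mice's mean levels was larger than the difference between the fractions, which is 64.3% beside 68.6% of all genes.

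**Figure D1:**
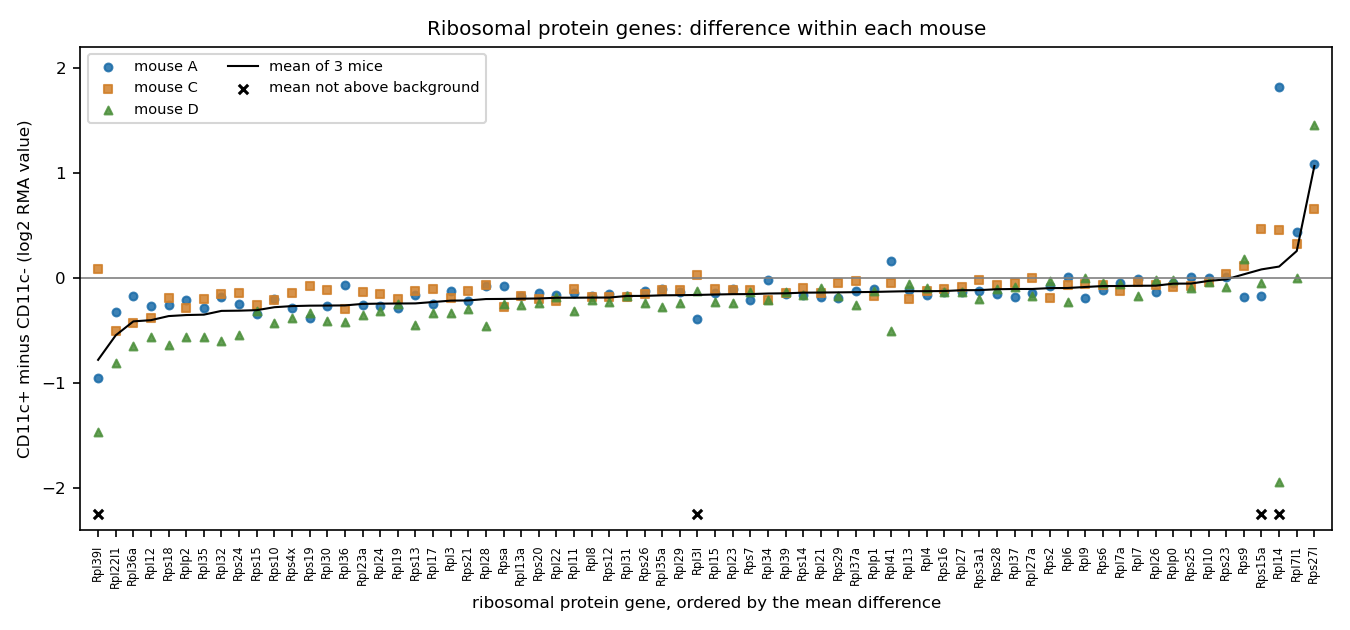
Difference between the CD11c+ and the CD11c- array of each mouse (vertical axis, log2 RMA value) for the 70 ribosomal protein genes, ordered by their mean difference (line). Circles, squares and triangles are mice A, C and D and crosses mark 4 genes not above background. On this deposited scale 65 means lie below 0, under cyclic loess the members' median was -0.065, centred on the CD3 chains it turned to 0.58, and Rps27l stands apart at 1.07.

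Of the 70 genes, 66 had a mean above the background level of 5.72, set at the 95th percentile over 38 genes that mark unrelated tissues. The 4 that did not were Rpl39l, Rpl3l, Rps15a and Rpl14. Among the 63 core members above background, differences ran from -0.41 for Rpl36a to 0.035 for Rps9, and 57 read lower in 3 of 3 mice. The exceptions were Rpl41, Rpl6, Rps25, Rpl10, Rps23 and Rps9. For Rpl41 this held for the representing probe set only. Its further probe sets, at -0.082, -0.45 and -0.70, each read lower in 3 of 3 mice. The median level of these 63 genes was 11.48 on the CD11c- and 11.28 on the CD11c+ array of mouse A. It was 11.32 and 11.16 in mouse C and 11.26 and 11.03 in mouse D, so that the median was lower in CD11c+ cells within each mouse, while the CD11c+ array of mouse A lay above the CD11c- array of mouse D.

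Both subunits gave nearly the same value. The 40 core large subunit genes above background had a median difference of -0.16 and the 23 small subunit genes one of -0.17, with medians of -0.065 and -0.075 under cyclic loess and of 0.58 and 0.57 with arrays centred on the CD3 chains. Of the large subunit genes 37 read lower in 3 of 3 mice, and of the small subunit genes 20 did. In mouse D the medians were -0.23 for both subunits.

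Rps27l showed the largest difference of the measured members. It encodes a close relative of the small subunit protein Rps27 and is known as a transcriptional target of p53. Its log2 values were 7.16, 7.49 and 6.72 in the CD11c- samples of mice A, C and D, and 8.25, 8.15 and 8.18 in their CD11c+ samples. The CD11c+ samples were all higher, with no overlap, and they lay closer together (mean 8.19 ± 0.051, SD, n = 3) than the CD11c- samples (7.12 ± 0.39, SD, n = 3). The difference was 1.07 with a standard error of 0.20, a fold of 2.10 with a 95% confidence interval of 1.45 to 3.03, and an adjusted p of 0.122 by limma. Its other 2 probe sets gave differences of 0.91 and 1.00 and were also higher in 3 of 3 mice. None of the 3 probe sets passed the threshold, and those with shared-sequence names can also record related transcripts.

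Rpl22l1 read lower in CD11c+ cells. It encodes the paralogue of Rpl22, a large subunit protein known for its requirement in αβ T cell development. Its values were 8.20, 8.08 and 8.15 in CD11c- and 7.87, 7.57 and 7.34 in CD11c+ cells of mice A, C and D. The groups did not overlap, and the CD11c+ samples were more widely spread (SD 0.27 against 0.062, n = 3 each). The difference was -0.55 with a standard error of 0.16 and an adjusted p of 0.251 by limma, and it was 0.19 with arrays centred on the CD3 chains. Rpl22 itself gave 10.37, 10.07 and 9.93 in CD11c- and 10.21, 9.85 and 9.75 in CD11c+ cells. Each mouse was lower by a similar amount, the groups overlapped, and the difference of -0.19 had an adjusted p of 0.617.

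**Figure D2:**
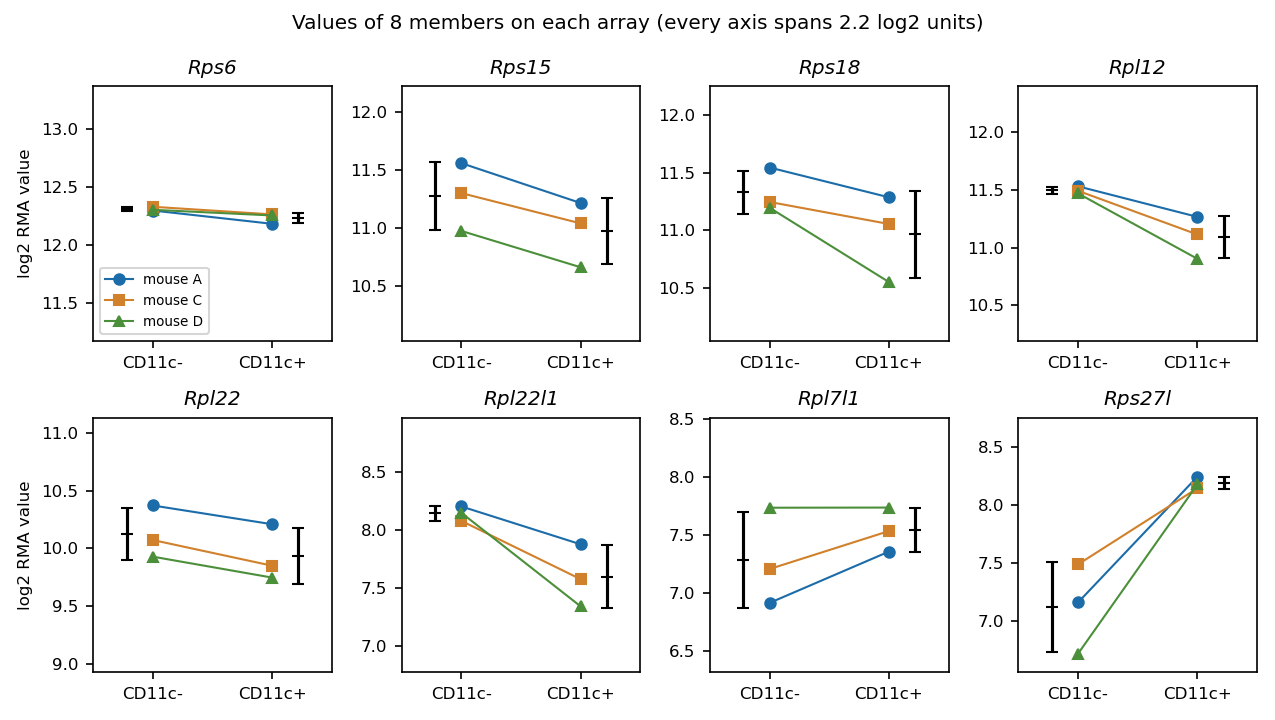
Log2 RMA values of 8 members on each array, CD11c- left and CD11c+ right, with a line joining the 2 arrays of a mouse. Black bars show the mean ± SD of 3 arrays, and every vertical axis spans the same number of log2 units. Rps27l reads higher on the right in every mouse, Rpl22l1 and Rpl12 separate the groups the other way on this scale, with 0.19 and 0.34 when arrays are centred on the CD3 chains, and the lines of Rps6 are nearly flat.

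The other paralogues offered less. Rpl7l1, related to the large subunit protein Rpl7, read 6.91, 7.21 and 7.73 in CD11c- and 7.36, 7.53 and 7.74 in CD11c+ cells. The groups overlapped, mouse D differed by only 0.0012, and the mean difference of 0.26 had an adjusted p of 0.578. Its further probe sets, both below background, gave -0.57 and 0.84 and so disagreed in sign. Rpl7 itself had a difference of -0.074, which was 0.020 under cyclic loess and 0.67 with arrays centred on the CD3 chains. Rpl39l, a testis-enriched relative of Rpl39, and Rpl3l, the striated muscle relative of Rpl3, were both not above background, so their differences of -0.78 and -0.16 describe no expression. Their ordinary counterparts Rpl39 and Rpl3 were measured at differences of -0.15 and -0.22, which became 0.59 and 0.52 with arrays centred on the CD3 chains.

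The stalk of the large subunit, where elongation factors bind, is built from Rplp0, Rplp1 and Rplp2 on a base that includes Rpl12. Rpl12 read 11.53, 11.49 and 11.47 in CD11c- and 11.26, 11.11 and 10.90 in CD11c+ cells. The CD11c- samples were nearly equal, and all CD11c+ samples lay below them. The difference was -0.40 with a standard error of 0.14 and an adjusted p of 0.329 by limma, and it was 0.34 with arrays centred on the CD3 chains. Rplp2 had a difference of -0.35, with -0.21, -0.29 and -0.56 in mice A, C and D and an adjusted p of 0.407. Rplp1 had -0.13, and Rplp0, the scaffold of the stalk, had -0.054. Rplp0 turned positive, at 0.043, under cyclic loess, and with arrays centred on the CD3 chains these 3 stalk proteins were at 0.39, 0.61 and 0.69.

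Among other large subunit proteins, Rpl36a had the lowest difference of the core members at -0.41, from 9.21, 8.63 and 8.76 in CD11c- to 9.04, 8.21 and 8.12 in CD11c+ cells. Its groups overlapped through the CD11c+ sample of mouse A, and its adjusted p was 0.371. Rpl35, which lines the exit of the nascent chain tunnel, read 11.43, 11.11 and 11.05 in CD11c- and 11.14, 10.91 and 10.48 in CD11c+ cells. The groups overlapped, the difference of -0.35 came most from mouse D, and its adjusted p was 0.418. Rpl31, also at the tunnel exit, was the most even between animals, with -0.17, -0.18 and -0.17. Its next brightest probe set was about as even, at -0.15, -0.16 and -0.16, while the dimmer ones gave 0.50 and -0.091. Rpl11, which can bind the p53 regulator Mdm2 when ribosome assembly fails, read 11.28, 11.16 and 11.25 in CD11c- and 11.14, 11.05 and 10.93 in CD11c+ cells. These groups did not overlap, and the difference was -0.19. Rpl10, added late in assembly near the sites for tRNA, had -0.028 and was 0.068 under cyclic loess.

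In the small subunit the lowest values were those of Rps18, Rps15 and Rps24. Rps18, a protein of the subunit's head, read 11.54, 11.25 and 11.20 in CD11c- and 11.29, 11.06 and 10.55 in CD11c+ cells. The groups overlapped and mouse D stood lowest, and the difference of -0.36 had an adjusted p of 0.436. Rps15, also in the head, gave 11.56, 11.30 and 10.97 in CD11c- and 11.21, 11.04 and 10.66 in CD11c+ cells. Its levels differed more between mice than between fractions, while each mouse was lower by about the same amount, and the difference was -0.31 with an adjusted p of 0.410. Rps24, one of the genes mutated in Diamond-Blackfan anaemia, read 11.56, 11.38 and 11.40 in CD11c- and 11.30, 11.24 and 10.86 in CD11c+ cells. These groups did not overlap, and the difference was -0.31 with an adjusted p of 0.484 by limma. Its next brightest probe set, at -0.29, had overlapping groups, while the one after that, at -0.33, did not. With arrays centred on the CD3 chains these 3 genes were at 0.38, 0.43 and 0.43.

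Rps19 and Rps10 are further Diamond-Blackfan anaemia genes, and their differences were -0.26 and -0.28. Rps4x, the X-linked form of Rps4, had -0.27, and Rpsa, the protein also known as the laminin receptor, had -0.20. Rps6, the substrate of the S6 kinases, read 12.30, 12.33 and 12.30 in CD11c- and 12.18, 12.26 and 12.26 in CD11c+ cells. Its groups did not overlap although the difference was only -0.076, which was 0.021 under cyclic loess. Rps23 and Rps9, which line the decoding site and the mRNA entry, lay at the upper end with -0.013 and 0.035. For Rps9, mouse A was lower by 0.18 while mice C and D were higher by 0.11 and 0.18, so the animals did not share a direction.

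Rpl14 and Rps15a were the core members whose mean was not above background. Rpl14 differed by 1.82 in mouse A, 0.46 in mouse C and -1.94 in mouse D, the widest spread of any member. Its mean of 0.11 had a standard error of 0.75 and carries no direction. Rps15a differed by 0.082. Both are represented by 1 probe set, so no second reading was at hand.

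Probe sets for ribosomal proteins can share sequence with processed pseudogenes, of which the mouse genome holds many for this family, and with paralogues, so the values of single genes are uncertain. Of the 70 representing probe sets, 16 carry the _x_at and 5 the _s_at name that the manufacturer gives to shared sequence. For core members above background the median difference was -0.18 over the 16 _x_at, -0.053 over the 5 _s_at and -0.17 over the 42 other probe sets, all on the deposited scale. The members' 63 further probe sets included 44 above background, with a median of -0.17 and 34 lower in 3 of 3 mice. They share their genes with the 70 and are a second reading of the same RNA.

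The sort label was borne out by Itgax, the gene of CD11c, at 8.97 ± 0.074 in CD11c+ against 4.60 ± 1.05 in CD11c- cells (SD, n = 3 each, adjusted p = 0.0387 by limma). T cell markers read lower in the CD11c+ fraction on the deposited scale. The 4 CD3 chain genes had a median difference of -0.64, lower in each mouse. Of 15 core T cell markers 2 were called lower, against 0.222% of all genes, and 13 were not called, with a median of -0.95. Their summed level was 13.02 to 13.33 in CD11c+ and 13.91 to 14.01 in CD11c- samples on the log2 scale. Of 19 monocyte and macrophage markers 13 were called higher, against 1.4% of all genes. Their summed levels were 13.2 to 13.6 in CD11c+ and 10.9 to 11.2 in CD11c- samples. In that list differences ran from -1.02 to 6.95, and 1 marker read lower in 3 of 3 mice while 18 read higher. All 6 basophil and mast cell markers were called higher, with summed levels of 10.9 to 11.7 against 6.19 to 6.36. Called higher were also 2 of 6 dendritic cell, 1 of 7 B cell, 2 of 6 NK cell and 1 of 5 platelet markers. Another NK cell marker was called lower, while 0 of 8 neutrophil and 0 of 3 erythroid markers were called. The part of these cell types in the ribosomal protein values was not tested. In sorted bulk samples fewer cells of a type and less mRNA per cell cannot be told apart.

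The controls for RNA ends differed among themselves. The 5′ control probe set of 18S rRNA read 12.31, 12.08 and 11.77 in CD11c- and 12.22, 11.99 and 11.40 in CD11c+ samples of mice A, C and D. It was lower in the CD11c+ sample of each mouse, by the largest amount in mouse D (-0.37, against -0.093 and -0.094 in mice A and C), with an adjusted p of 0.656. The 5′ probe set of Actb differed by 0.043, 0.045 and -0.0049, and that of Gapdh by -0.078, -0.0002 and -0.12. The 5′ minus 3′ reading of 18S rRNA differed between the fractions by -0.097, -0.0505 and -0.38 in mice A, C and D. For Actb it differed by -0.041, -0.018 and -0.11, and for Gapdh by -0.15, 0.017 and 0.15. The part of RNA quality in the members' values was not tested.

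The remaining translation machinery was examined through lists of genes outside the rule. The 73 mitochondrial ribosomal proteins build a separate ribosome inside mitochondria. On the deposited scale 0 of them were called by limma. At an unadjusted p under 0.05, 6 were lower and 0 higher, against 7.44% and 7.38% of all genes. The median difference of the 73 was -0.14, -0.056 under cyclic loess and 0.60 with arrays centred on the CD3 chains. It was 0.023 in mouse A, -0.18 in mouse C and -0.30 in mouse D, so the mice were less alike than for the cytosolic proteins. The lowest value was that of Mrps5 at -1.64 (standard error 0.27) and the highest that of Mrps35 at 0.56. Fau and Rpl36al, cytosolic ribosomal genes whose symbols lie outside the rule, differed by -0.036 and -0.073, and their median turned to 0.040 under cyclic loess.

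Ribosome biogenesis factors and RNA polymerase I subunits, which make and process ribosomal RNA, gave 0 called of 83. At an unadjusted p under 0.05, 8 were lower and 2 higher, against 7.44% and 7.38% of all genes. The median of the 83 was -0.20 on the deposited scale, -0.11 under cyclic loess and 0.54 with arrays centred on the CD3 chains. Polr1e, a subunit of RNA polymerase I, was lowest at -1.84 with an adjusted p of 0.0768, and neither group's mean was above background. Nop9, a pre-ribosome factor, was highest at 0.81. Elongation and release factors had a median of -0.16 over 13 genes, which was -0.063 under cyclic loess and 0.58 with arrays centred on the CD3 chains. Gspt1, a release factor, was lowest at -0.59.

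Of the 13 elongation and release genes 1 was called, where the share called higher over all genes was 1.4%. Eef2k, the kinase that slows elongation by phosphorylating elongation factor 2, read 4.14, 3.92 and 3.79 in CD11c- and 6.28, 5.67 and 5.14 in CD11c+ cells. It was higher in each mouse, by 1.75 on average, with an adjusted p of 0.0490 by limma, although neither group's mean was above background. The 34 regulators of mTORC1 and TOP mRNAs had a median of -0.076, which turned to 0.0060 under cyclic loess and 0.66 with arrays centred on the CD3 chains. Of these 1 was called, Mxd1, an antagonist of Myc, against the same 1.4% of all genes called higher. Mxd1 read 6.93, 7.51 and 7.28 in CD11c- and 8.70, 9.01 and 9.25 in CD11c+ cells, a difference of 1.75 with an adjusted p of 0.0278. Ddit4, an inhibitor of mTORC1, had the largest difference of that list at 2.17 and an adjusted p of 0.0501, and Sesn3, another inhibitor, the lowest at -1.51. Without any one of the mice A, C or D, 0 genes of either list were called, and under cyclic loess and median centring Eef2k was not called. Without the mouse block 2 regulators were called, Mxd1 higher and Sesn3 lower.

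Initiation factors bring the small subunit to the start codon. Of 39 genes, 0 were called by limma. At an unadjusted p under 0.05, 2 were higher and 2 lower, against 7.38% and 7.44% of all genes. The median of the 39 was 0.058, which kept its sign at 0.13 under cyclic loess and 0.80 with arrays centred on the CD3 chains. The lowest value was that of Eif2s2, the beta subunit of initiation factor 2, at -0.56. The highest was that of Eif1ad at 0.76. No test was made between the lists.

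**Figure D3:**
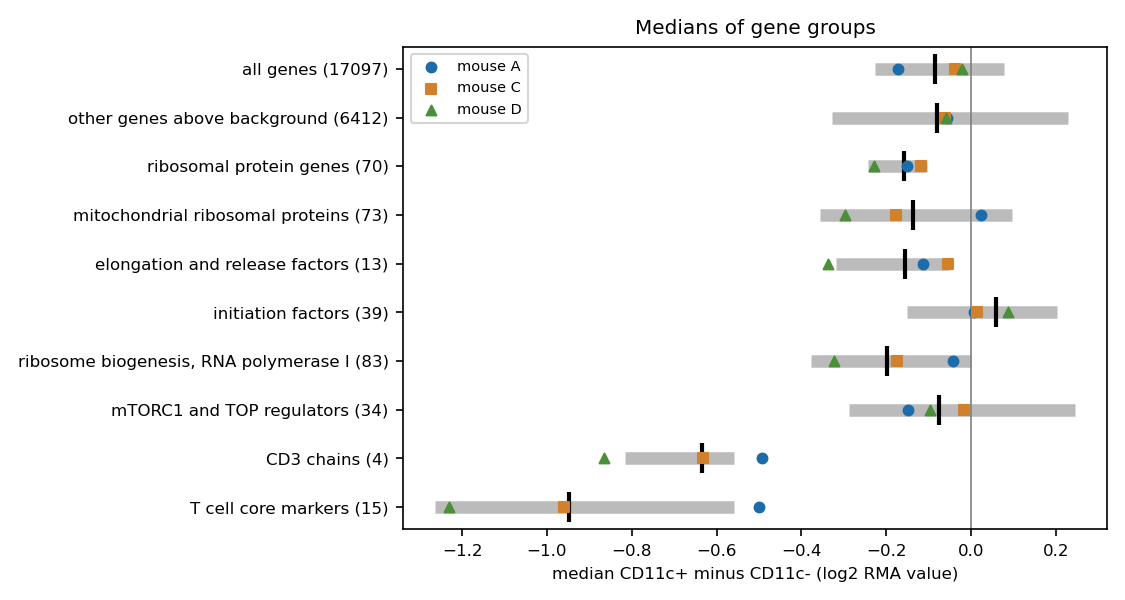
Median log2 difference, CD11c+ minus CD11c-, of each gene group (number of genes in brackets). Black ticks are medians of the mean differences, grey bars span the quartiles, and symbols are the medians in mice A, C and D. The ribosomal protein genes form a narrow bar around -0.16 on this deposited scale, which turned to 0.58 when arrays were centred on the CD3 chains, and the T cell groups lie lowest.

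The members' median minus the median of all genes was -0.073 on the deposited scale and -0.060 under cyclic loess. Centring arrays on their medians or on the CD3 chains shifts all genes of an array alike and cannot change that distance. Centring on the CD3 chains moved the median of all genes from -0.086 to 0.65. In that scaling 19 of the 70 members were called higher and 0 lower by limma, where 50.1% of all genes were called higher and 0.573% lower. The CD3 chains themselves read lower in CD11c+ cells on the deposited scale, and this scaling sets their mean equal by construction. RMA makes the distributions of the arrays more alike, although the array medians still ran from 4.40 to 4.54. A difference in total mRNA per cell cannot be read from these values.

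**Figure D4:**
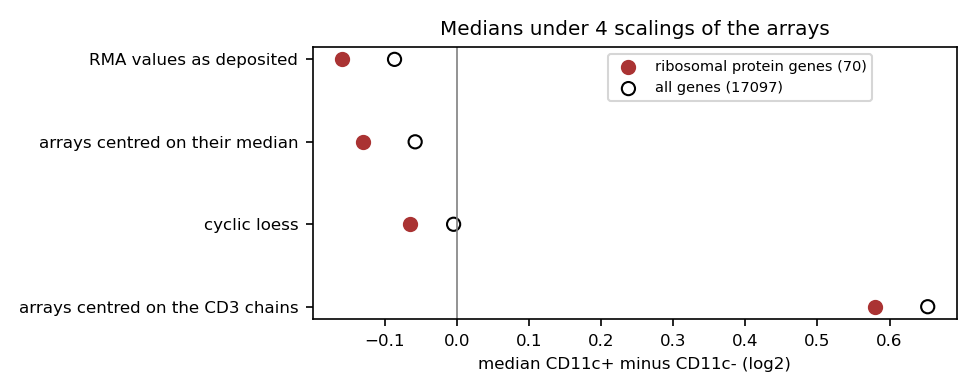
Median log2 difference, CD11c+ minus CD11c-, of the 70 ribosomal protein genes (filled) and of all 17097 genes (open) under 4 scalings of the arrays. Both centrings shift members and all genes alike by construction, cyclic loess brings the members to -0.065, and both sets turn positive when the arrays are centred on the CD3 chains.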

How the data were processed

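Deposited values were log2 signals of single-colour Affymetrix arrays, which the authors normalized and summarized by RMA before they ran limma, as the submitters' processing notes also name. Versions of both were not given in the sources consulted. From these values limma 3.58.1 in R 4.3.3 was fitted to all 45141 probe sets, two-sided, with the mouse as a fixed block and Benjamini-Hochberg adjustment over all of them, at a threshold of 0.05. Pairs come from the labels, and after removal of the group means the 2 arrays of a mouse correlated across probe sets with r of 0.122 (A), 0.0758 (C) and 0.109 (D). In the supplied platform annotation, 28898 probe sets have 1 gene symbol, 551 have several and 15692 have none.

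The members and lists were chosen with earlier results of these data known. Named members were the 6 highest and the 6 lowest, members of listed paralogue pairs (Rps4x and Rpl10 included), stalk proteins, Rpsa, Rps6, Rpl11 and Rps19. Genes outside that rule, chosen after their values were seen, are Rps15, Rps24, Rps10, Rpl35, Rpl31 and those listed for a count. In each pathway list the called genes and both extremes were named. Counts lower in 3 of 3 mice are descriptions. The fit was tested on simulated data. Alternatives covered the block, leaving out each mouse, 3 scalings, probe set choice, a filter on dim probe sets, the variance model and the threshold. Members above background were added as an alternative after seeing the data. Only 3 pairs of arrays limit the precision.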

Additional observations from a re-analysis of the deposited data

How the results depend on the processing

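The count of 0 called members held under every alternative but one. With arrays centred on the CD3 chains, 19 of the 70 members were called higher, against 50.1% of all genes. The members' median became 0.58 there, beside 0.65 over all genes, with 0 members lower in 3 of 3 mice. Under cyclic loess the median was -0.065 and 36 members were lower in 3 of 3. With no replicate block 0 were called, the lowest adjusted p by limma being 0.0710, and the block changed no call but the count of mTORC1 and TOP regulators, 2 without it. The lowest adjusted p by limma ran from 0.0530 with a trended variance to 0.336 without mouse A. With the trended variance 44 members were lower at an unadjusted p under 0.05, against 7.13% of all genes. Median standard errors there were 0.058 for the members and 0.208 for all genes. Leaving out each mouse gave 0 called (0 to 0) and medians of -0.19 to -0.14. Those fits kept 1 residual degree of freedom per probe set and had little power, so their 0 adds little. Leaving out a mouse gives no count over 3 mice. Counting only the 66 members above background, chosen after seeing the data, left the median at -0.16 and the count lower in 3 of 3 mice at 58.

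Centred on the CD3 chains, which shifts every gene upwards, the sign turned for Rpl10 (0.71), Rpl11 (0.55), Rpl12 (0.34), Rpl22 (0.55), Rpl22l1 (0.19), Rpl3 (0.52), Rpl31 (0.57), Rpl35 (0.39), Rpl36a (0.33), Rpl39 (0.59), Rpl3l (0.58), Rpl7 (0.67), Rplp0 (0.69), Rplp1 (0.61), Rplp2 (0.39), Rps10 (0.46), Rps15 (0.43), Rps18 (0.38), Rps19 (0.48), Rps23 (0.73), Rps24 (0.43), Rps4x (0.47), Rps6 (0.66) and Rpsa (0.54). Under cyclic loess it turned for Rpl10 (0.068), Rpl7 (0.020), Rplp0 (0.043), Rps23 (0.082) and Rps6 (0.021). Centring on array medians turned Rpl10 (0.0011) and Rps23 (0.016). Without _x_at and _s_at probe sets Rpl10 was 0.027 and Rpl31 0.50, and when all probe sets of a gene were averaged Rpl31 was 0.021. The causes were not tested. Leaving out each mouse turned Rpl14 (-0.74 to 1.14), Rps15a (-0.11 to 0.21), Rps9 (-0.035 to 0.14) and Rps23 (-0.039 to 0.026). No other named member turned. Arrays give signal and not depth, and the 4 members not above background have no measured level.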
